A study of Mus musculus with 9 samples.

Results

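The genes described here are the nuclear-encoded subunits of the oxidative phosphorylation (OXPHOS) machinery of mitochondria, 84 of the 57010 genes in the deposited mouse table. They were taken by name, as symbols that begin with Nduf (but not Ndufaf), with Cox4, Cox5, Cox6, Cox7 or Cox8, with Uqcr or with Atp5, together with Sdha, Sdhb, Sdhc and Sdhd. The names gave 107 rows, from which 15 marked as pseudogenes by "-ps" were dropped, as were 8 with a mean below 10 expected counts a library, the estimated reads that the quantifier RSEM assigned to a gene. Just below that limit were Cox8b, with a mean of 8 expected counts, and Cox7b2, with 1.67, and just above it were Cox7a1, with 20.6, and Cox4i2, with 21.1. The rule used no difference between groups. All 84 members also passed the filter on low counts and were among the 17967 genes tested. By complex they fell into 38 genes of complex I, 4 of complex II, 8 of complex III, 17 of complex IV and 17 of complex V. Ndufa4 and its paralogue Ndufa4l2 were counted with complex IV, to which the Ndufa4 protein belongs despite its name.

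The material was hippocampus of the inbred mouse strain C57BL/6J, sequenced as 3 libraries in each of 3 groups. CBD mice had a ligated spinal nerve and then received cannabidiol, a non-intoxicating cannabinoid, by intraperitoneal injection at 5 mg/kg for 15 days. SNL mice had the same spinal nerve ligation, which is used to model neuropathic pain, and were given solvent. Sham mice had the L5 spinal nerve located but not tied, and solvent. The labels give no age or sex, name no transgene, and leave it unstated if each library is a different mouse. The p-values therefore measure the spread between these libraries, which may be technical. Cannabidiol without ligation was not analysed here.

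Oxidative phosphorylation passes electrons from NADH through complex I, or from succinate through complex II, to ubiquinone, then through complex III and cytochrome c to complex IV, which reduces oxygen to water. Complexes I, III and IV pump protons across the inner mitochondrial membrane, and complex V, the ATP synthase, lets them return and makes ATP. Complexes I, III, IV and V are assembled from subunits of both genomes, the mitochondrial DNA supplying a few hydrophobic core subunits and the nucleus all others, while complex II is wholly nuclear-encoded. Neurons draw much of their ATP from this pathway, and transcripts of its nuclear subunits are short and abundant in brain.

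Many promoters of such genes hold letters bound by the nuclear respiratory factor NRF1, by GABPA (NRF-2) or by YY1, and 4 promoters are shown. Each line gives the 150 bases before the RefSeq transcription start on the transcript's strand (mouse build GRCm38.p6), with matches on either strand to the NRF1 letters (GCGC, any base, T, then GCGC) or the GABPA letters (CCGGAAG) in capitals. The genes are Sdha, a member whose CBD and SNL means were close, and 3 members with lower CBD than SNL values in every library. All 4 hold NRF1 or GABPA letters in the bases shown, which many members lack.
Sdha, chr13:74350241-74350390, minus strand: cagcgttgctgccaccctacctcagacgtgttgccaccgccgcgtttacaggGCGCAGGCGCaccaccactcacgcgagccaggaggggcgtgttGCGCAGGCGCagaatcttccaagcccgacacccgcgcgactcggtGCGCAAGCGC
Uqcrh, chr4:116075071-116075220, minus strand: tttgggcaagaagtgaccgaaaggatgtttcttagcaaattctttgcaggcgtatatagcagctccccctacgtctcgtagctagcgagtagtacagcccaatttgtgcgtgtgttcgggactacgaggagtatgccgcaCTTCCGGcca
Cox6a1, chr5:115348959-115349108, minus strand: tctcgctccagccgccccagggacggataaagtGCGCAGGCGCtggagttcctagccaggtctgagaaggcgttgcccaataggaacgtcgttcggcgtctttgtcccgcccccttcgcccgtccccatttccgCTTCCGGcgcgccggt
Atp5k, chr5:108434400-108434549, minus strand: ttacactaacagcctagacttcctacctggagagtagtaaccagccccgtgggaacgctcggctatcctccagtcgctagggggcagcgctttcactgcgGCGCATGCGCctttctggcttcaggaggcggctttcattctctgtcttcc

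In the Sdha promoter the NRF1 letters began 98, 55 and 10 bases before the start, and in Atp5k 50 bases before it. Cox6a1 held NRF1 letters that began 117 bases and GABPA letters 16 bases before the start, and Uqcrh held GABPA letters 10 bases before it. Of the 84 members, 68 had a RefSeq promoter of 300 bases (250 before and 50 after the start) under their symbol. NRF1 letters were in 25% of these 68, against 9.95% of the 12548 tested genes with a promoter and 5.19% of all 27025 promoters. GABPA letters were in 25% of members, against 17.3% of tested genes and 9.93% of all promoters, and YY1 letters (AAGATGGC) in 14.7%, against 4.6% and 3.19%. SP1 letters (GGGCGG) were in 41.2% of members, 65% of tested genes and 38.2% of all promoters, and letters of the oestrogen-related receptor ESRRA (TCAAGGTCA) in 2.94%, 0.343% and 0.466%. All matches were sought on both strands, and NRF1, GABPA or YY1 letters were in 38 of the 68. The promoters of Atp5d and Uqcr10, at -0.70 and -0.79 for CBD against SNL, held none of these letters. Ndufa2 and Cox6a2, at -0.77 and -1.08, were not among the 68. The letters describe the window and not binding. For CBD against SNL the median fold change was -0.46 with NRF1 letters (17 genes) and -0.41 without (51 genes), the same with and without GABPA letters, and -0.48 with YY1 letters (10 genes) and -0.44 without (58 genes). The widest gap of these 3 motifs over the 3 comparisons was for GABPA letters in CBD against sham, at -0.21 with and -0.12 without, and no test compared them.

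The libraries held between 16972620 and 20470546 expected counts. Levels are given as CPM, counts scaled to a common library size with factors from the trimmed mean of M-values (TMM), and fold changes are log2 values with their standard error (SE). All 10 dentate granule cell markers, which mark the hippocampus, were detected, among them Prox1 at 56.0 to 139 CPM. In bulk tissue fewer cells of a type and less RNA per cell cannot be told apart. Of the 13 neuron markers all were detected, with summed levels of 7613 to 8050.0 CPM in CBD, 7523 to 8106 CPM in SNL and 8067 to 8591 CPM in sham libraries. The libraries CBD 1, SNL 1 and SNL 2 stood apart through hypothalamic transcripts: the 12 hypothalamus markers summed to 412 CPM in CBD 1, 321 CPM in SNL 1 and 75.5 CPM in SNL 2, against 8.62 to 12.9 CPM in the other 6 libraries, where Hcrt, the orexin precursor, was at 0 in CBD 2, CBD 3, Sham 1 and Sham 2. The main results are therefore also given without these 3 libraries, a fit in which SNL 3 stands alone for its group and is assumed to vary like the others. That fit keeps the SNL library with the highest summed OXPHOS level and drops the CBD library with the highest, which by itself widens the differences.

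After ligation the OXPHOS genes were slightly higher, and with cannabidiol lower than after ligation alone. In SNL against sham mice 83 of the 84 members had a positive fold change, with a median of 0.26, where 51.6% of all tested genes were higher and their median was 0.01. In CBD against SNL mice 80 of the 84 were lower, with a median of -0.44, where 50.1% of all tested genes were lower and their median was -0.00. In CBD against sham mice 63 of the 84 were lower, with a median of -0.14, where 49.9% of all genes were lower and their median was 0.00. The SNL libraries enter both of the first comparisons, with opposite sign, so these are not independent of each other.

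None of these differences passed the test for a single gene. By edgeR's quasi-likelihood F test with Benjamini-Hochberg adjustment over the 17967 genes, 0 of 84 members and 0 of all genes (0%) had an adjusted p under 0.05 in any of the 3 comparisons, and the smallest adjusted p of a member was 0.21 for SNL against sham, 0.306 for CBD against SNL and 0.213 for CBD against sham. At an unadjusted p under 0.05 there were 16 members in SNL against sham, all higher, against 5.83% of all genes in that direction. There were 59 in CBD against SNL, all lower, which is 70.2% of the members against 7.2% of all genes. There were 7 in CBD against sham, all lower, which is 8.33% of the members and close to the 8.87% of all genes. The Wald test of DESeq2, run as an alternative, gave an adjusted p under 0.05 to 1 member in SNL against sham (Cox6a2, higher, as were 0.696% of the genes it adjusted), to 4 in CBD against SNL (Atp5d, Ndufa2, Cox6a2 and Uqcr10, all lower, as were 0.518%) and to 1 in CBD against sham (Atp5d, lower, as were 2.1%).

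By library, the summed level of the 84 members was 9485, 8725 and 8121 CPM in CBD mice, 10998, 10079 and 11658 CPM in SNL mice and 8057, 10291 and 9918 CPM in sham mice. Every CBD library lay below every SNL library, while sham libraries overlapped with both. The median member, relative to its mean over the 9 libraries, stood at -0.01, -0.22 and -0.33 (log2) in CBD, at 0.24, 0.07 and 0.36 in SNL and at -0.32, 0.14 and 0.05 in sham libraries. Both ends of the scale came mainly from few libraries. SNL 3 was the highest library for 49 of the members and SNL 1 for 22, and CBD 3 was the lowest for 40 and Sham 1 for 38. The mean was highest in SNL for 80 of the 84 and lowest in CBD for 63.

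**Figure D1:**
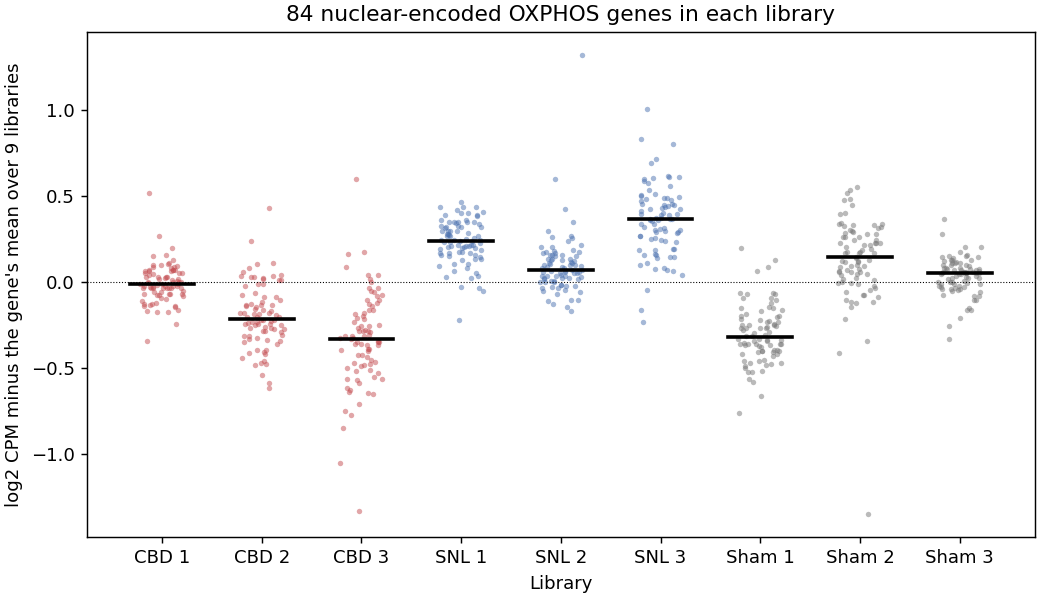
Level of each of the 84 nuclear-encoded OXPHOS genes (points) in each of the 9 libraries, as log2 CPM minus that gene's mean over the libraries, with the median of the 84 as a black line. The medians lie at -0.01, -0.22 and -0.33 in the CBD libraries, at 0.24, 0.07 and 0.36 in the SNL libraries, and at -0.32, 0.14 and 0.05 in the sham libraries, where Sham 1 sits apart from the other sham libraries.

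The first comparison leaned on Sham 1. The SNL and sham groups did not overlap for 13 members, all higher in SNL (15.5%, against 7.94% of all genes). Without Sham 1 the median fold change was 0.13, with 76 of 84 members higher and 1 at an unadjusted p under 0.05. Without Sham 2 it was 0.37, with 34 at that level. The count was 5 without SNL 1, 3 without SNL 3 and 10 without CBD 2, which enters through the shared estimate of spread. Of all genes 3.59% were higher at that level without Sham 1 and 4.01% without Sham 2. The share was 4.09% without SNL 1, 5.83% without SNL 3 and 4.83% without CBD 2. Without the 3 libraries with hypothalamic transcripts the median was 0.39, with 82 higher.

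The difference between CBD and SNL mice kept its direction without any 1 library. The groups did not overlap for 56 members that were lower in CBD (66.7%, against 10.1% of all genes) and for 1, Ndufs1, that was higher (9.18% of all genes). The median stayed between -0.52 and -0.34 when each library was left out in turn, with 80 to 82 members lower. The number of members at an unadjusted p under 0.05 was 16 without CBD 3, 27 without SNL 3, 30 without CBD 2 and 39 without SNL 1, against 59 with all libraries. All were lower, as were 2.98%, 5.49%, 3.49% and 5.69% of all genes at that level in these 4 fits, in the order given. Without the 3 libraries with hypothalamic transcripts the median was -0.67 and 82 members were lower. There CBD 2 and CBD 3, with summed levels of 8725 and 8121 CPM, faced SNL 3 alone, with 11658 CPM. These are the lowest CBD and the highest SNL sums, so a wider gap was bound to follow.

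In CBD against sham mice the median of -0.14 was -0.25 without CBD 1 and -0.26 without Sham 1, against -0.07 without CBD 3 and -0.06 without Sham 2. The number at an unadjusted p under 0.05, 7 with all libraries, was 22 without CBD 1, 28 without Sham 1, 2 without Sham 2 and 1 without either CBD 2 or CBD 3. All were lower, as were 10.7%, 5.48%, 6.18%, 5.93% and 5.9% of all genes at that level in these fits, in the order given. The groups did not overlap for 3 members that were lower in CBD, against 11.1% of all genes, and for Ndufs1, which was higher, against 10.6%. Without the 3 libraries with hypothalamic transcripts the median was -0.24.

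The medians of the 5 complexes had the same sign in each comparison, but complexes II and V changed sign for CBD against sham, to 0.04 and 0.02, once transcript length and GC content were fitted as offsets. In SNL against sham mice the median fold change was 0.29 for complex I, 0.13 for complex II, 0.17 for complex III, 0.27 for complex IV and 0.25 for complex V. In CBD against SNL mice it was -0.44 for complex I, -0.16 for complex II, -0.48 for complex III, -0.44 for complex IV and -0.38 for complex V. In CBD against sham mice the medians were -0.14, -0.01, -0.23, -0.13 and -0.15 for complexes I to V in that order. No test compared the complexes, and complex II has only 4 genes, each with a transcript longer than the median member. Leaving out Sham 1 brought the SNL against sham medians down to 0.16, 0.05, 0.07, 0.13 and 0.08 in the same order.

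**Figure D2:**
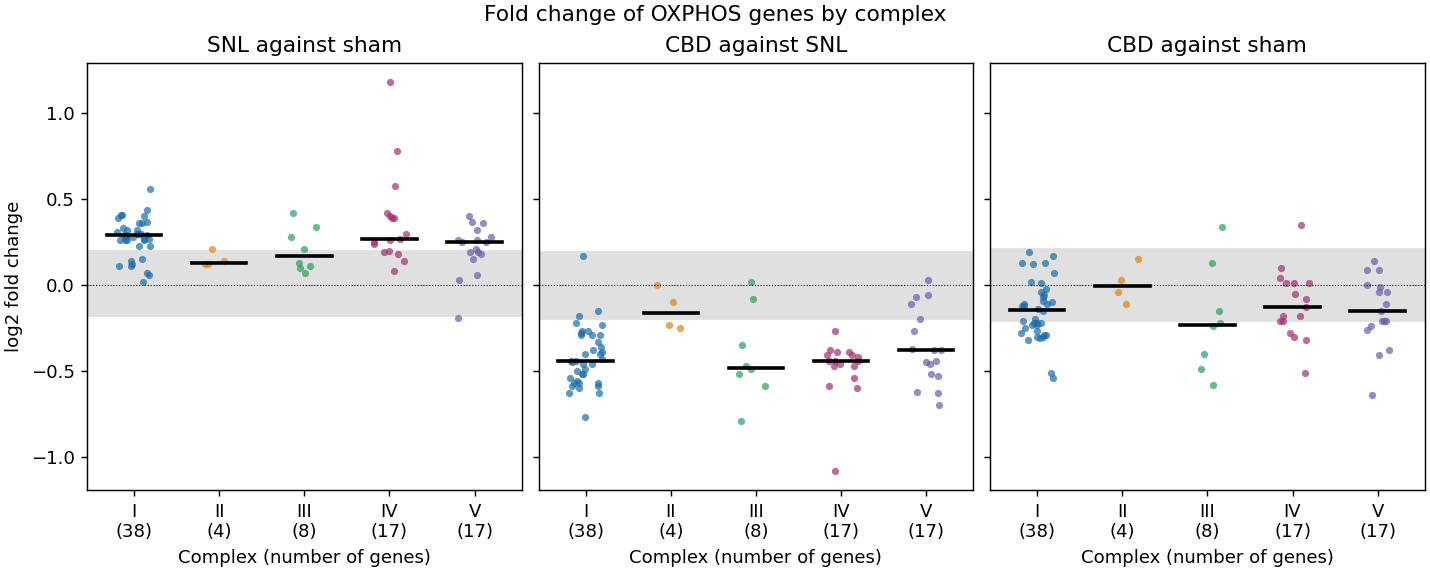
Fitted log2 fold change of each OXPHOS gene (points) by complex, with the number of genes in brackets and the median as a black line, for SNL against sham, CBD against SNL and CBD against sham. The grey band spans the middle quartiles of all 17967 genes tested (-0.18 to 0.20, -0.20 to 0.19 and -0.21 to 0.21). In the middle panel the medians of complexes I, III, IV and V lie between -0.48 and -0.38, below the band, and that of complex II at -0.16 lies inside it.

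Complex I, the NADH dehydrogenase, showed the pattern through its core and its accessory subunits. All 38 genes were higher in SNL than in sham mice and 37 were lower in CBD than in SNL mice, of which 25 did not overlap between the groups, where 10.1% of all genes were lower without overlap. The 7 core subunits, which carry the flavin and the iron-sulfur clusters, had medians of 0.23 for SNL against sham and -0.27 for CBD against SNL. The 31 accessory subunits had medians of 0.29 and -0.46. Their summed level over both kinds was 2601, 2342 and 2186 CPM in CBD, 3067, 2706 and 3349 CPM in SNL and 2139, 2834 and 2650.1 CPM in sham libraries.

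Of the core subunits, Ndufs1, the large iron-sulfur subunit of the NADH-oxidising module, went the other way. It had 161, 163 and 171 CPM in CBD, 148, 157 and 135 CPM in SNL and 132, 141 and 160.4 CPM in sham libraries. All CBD libraries were above all others, and the fold change was 0.17 ± 0.10 (SE) against SNL and 0.19 ± 0.10 against sham (edgeR adjusted p = 0.501 and 0.391). Ndufv1, which binds NADH and the flavin, had 137, 159 and 135 CPM in CBD, 169, 159 and 177 CPM in SNL and 148, 155 and 161 CPM in sham libraries. Its CBD values were below its SNL values, CBD 2 only just, with a fold change of -0.23 ± 0.10 (edgeR adjusted p = 0.355). Ndufv2, an iron-sulfur partner of Ndufv1, had 96.4, 93.3 and 85.8 CPM in CBD, 115, 84.3 and 107 CPM in SNL and 65.4, 83.4 and 96.0 CPM in sham libraries. The 3 groups overlapped for it, and CBD against sham gave 0.17 ± 0.16 (edgeR adjusted p = 0.607).

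Ndufs7 is a core subunit near the site where ubiquinone is reduced. It had 50.9, 41.2 and 37.1 CPM in CBD, 66.4, 53.7 and 71.2 CPM in SNL and 46.9, 58.8 and 53.0 CPM in sham libraries. Its CBD values were all below its SNL values, with a fold change of -0.57 ± 0.15 (edgeR adjusted p = 0.306). Among the core genes Ndufs3 stood at -0.29 and Ndufs8 at -0.44 for CBD against SNL.

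Among the accessory subunits, which surround the core and are needed for assembly and stability, Ndufa2 had the largest difference of complex I. It had 34.9, 27.1 and 21.5 CPM in CBD, 45.9, 40.4 and 55.7 CPM in SNL and 30.9, 46.5 and 41.5 CPM in sham libraries. CBD and SNL did not overlap, and the fold change was -0.77 ± 0.20, 1.70-fold lower in CBD, with an edgeR adjusted p of 0.306 and a DESeq2 adjusted p of 0.0409. Against sham it was -0.51 ± 0.20 (edgeR adjusted p = 0.267), with Sham 1 within the CBD range. Ndufa7 had 36.5, 23.2 and 22.2 CPM in CBD, 41.9, 37.5 and 44.8 CPM in SNL and 30.0, 51.2 and 37.6 CPM in sham libraries. CBD 2 and CBD 3 were below all other libraries and CBD 1 was not, and CBD against sham gave -0.54 ± 0.22 (edgeR adjusted p = 0.28).

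Ndufb10 and Ndufb5, accessory subunits of the membrane arm, had the smallest p of complex I for ligation. Ndufb10 had 107, 98.9 and 88.0 CPM in CBD, 123, 111 and 163 CPM in SNL and 80.7, 108 and 103 CPM in sham libraries. All SNL values were above all others, and SNL against sham gave 0.44 ± 0.16 (edgeR adjusted p = 0.286). Ndufb5 had 66.7, 69.0 and 60.1 CPM in CBD, 85.3, 65.7 and 88.3 CPM in SNL and 47.0, 66.8 and 66.9 CPM in sham libraries. SNL 2 fell within the range of the sham libraries, and the fold change was 0.41 ± 0.16 (edgeR adjusted p = 0.306). The remaining 27 accessory subunits lay between 0.07 and 0.56 for SNL against sham and between -0.63 and -0.18 for CBD against SNL. Ndufb4c is named as a copy of Ndufb4, so reads may have been shared between them and both values, -0.29 and -0.45 for CBD against SNL, are uncertain.

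Complex II, succinate dehydrogenase, links the tricarboxylic acid cycle to the chain. Sdha, the flavoprotein that oxidises succinate, had 441, 473 and 450.5 CPM in CBD, 455, 406 and 500.1 CPM in SNL and 382, 396 and 454 CPM in sham libraries. CBD and SNL means were 455 ± 16.2 and 454 ± 46.9 CPM (SD, n = 3 each), and the fold change was 0.00 ± 0.11 (edgeR adjusted p = 0.994). Against sham it was 0.14 ± 0.11 for SNL and 0.15 ± 0.11 for CBD (edgeR adjusted p = 0.591 and 0.536). Sdhb, the iron-sulfur subunit, had 82.2, 78.9 and 72.3 CPM in CBD, 98.9, 74.5 and 101 CPM in SNL and 71.3, 91.5 and 89.6 CPM in sham libraries. SNL 2 fell inside the CBD range, and CBD against SNL gave -0.23 ± 0.14 (edgeR adjusted p = 0.487).

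Sdhc and Sdhd anchor the enzyme in the membrane and hold its haem. Sdhc had 96.9, 79.6 and 79.9 CPM in CBD, 112, 105 and 88.1 CPM in SNL and 83.7, 84.1 and 95.9 CPM in sham libraries. Its groups overlapped, with -0.25 ± 0.12 for CBD against SNL and 0.21 ± 0.12 for SNL against sham (edgeR adjusted p = 0.396 and 0.478). Sdhd had 60.2, 64.4 and 63.1 CPM in CBD, 70.3, 64.0 and 66.1 CPM in SNL and 49.2, 66.2 and 68.5 CPM in sham libraries. Its CBD and SNL means were 62.5 ± 2.16 and 66.8 ± 3.2 CPM (SD, n = 3 each), the ranges overlapped, and the fold change was -0.10 ± 0.13 (edgeR adjusted p = 0.764).

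Complex III, the cytochrome bc1 complex, passes electrons from ubiquinol to cytochrome c. All 8 genes were higher in SNL than in sham mice and 7 were lower in CBD than in SNL mice, 6 of them without overlap (10.1% of all genes). The 2 core proteins, large subunits that face the matrix, differed from each other. Uqcrc1 had 206, 147 and 133 CPM in CBD, 228, 226 and 217 CPM in SNL and 215, 207 and 218 CPM in sham libraries. Its CBD libraries were below all SNL and sham libraries, CBD 1 only just, with -0.47 ± 0.15 against SNL and -0.40 ± 0.15 against sham (edgeR adjusted p = 0.306 and 0.245). Without CBD 1 the fold change against SNL was -0.69 and against sham -0.61. Uqcrc2 had 193, 190.4 and 198 CPM in CBD, 197, 179 and 197 CPM in SNL and 149.8, 177 and 203 CPM in sham libraries. Its 3 groups overlapped, and CBD against SNL gave 0.02 ± 0.12 (edgeR adjusted p = 0.957).

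The small subunits of complex III had a median of -0.52 for CBD against SNL over 5 genes. Uqcr10, the shortest transcript of the 8, had 51.2, 38.8 and 29.8 CPM in CBD, 70.3, 60.4 and 76.2 CPM in SNL and 45.8, 77.0 and 56.1 CPM in sham libraries. CBD and SNL did not overlap, and the fold change was -0.79 ± 0.22, 1.73-fold lower in CBD, with an edgeR adjusted p of 0.306 and a DESeq2 adjusted p of 0.0492. Against sham it was -0.58 ± 0.22 (edgeR adjusted p = 0.251), and Sham 1 lay inside the CBD range. Uqcrh, the hinge protein that helps cytochrome c dock, had 126, 103 and 98.5 CPM in CBD, 169.8, 141 and 149 CPM in SNL and 95.0, 134 and 134 CPM in sham libraries. Its SNL libraries were above all others, with 0.34 ± 0.15 against sham and -0.49 ± 0.15 for CBD against SNL (edgeR adjusted p = 0.362 and 0.306).

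Uqcrb, a small subunit at the quinone-reducing side, differed from its neighbours. It had 65.7, 76.7 and 66.8 CPM in CBD, 79.2, 64.8 and 76.9 CPM in SNL and 38.3, 61.5 and 65.8 CPM in sham libraries. The CBD range lay inside the SNL range, and Sham 1 was the lowest library. SNL against sham gave 0.42 ± 0.18 and CBD against sham 0.34 ± 0.18 (edgeR adjusted p = 0.353 and 0.38), and without Sham 1 these were 0.21 and 0.13. The iron-sulfur Rieske protein Uqcrfs1 stood at -0.35 for CBD against SNL, and Uqcrq and Uqcr11 at -0.52 and -0.59.

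**Figure D3:**
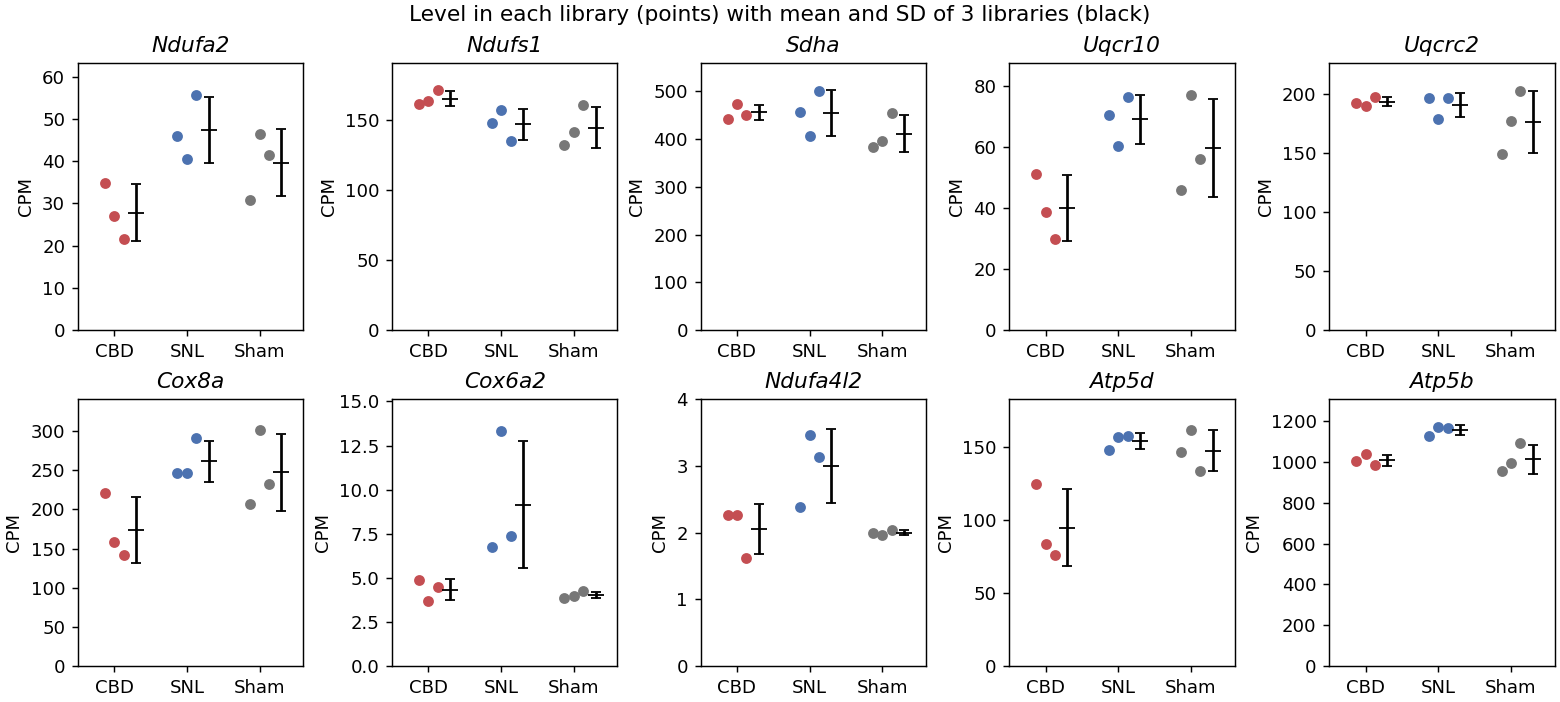
CPM of 10 OXPHOS genes in each library (points; CBD, SNL and sham groups from left to right), with the mean and SD of 3 libraries in black and every axis starting at 0. Ndufa2, Uqcr10, Cox8a and Atp5d have all CBD libraries below all SNL libraries, Ndufs1 has them above, and Sdha and Uqcrc2 overlap in all groups.

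Complex IV, cytochrome c oxidase, was lower in CBD than in SNL mice for all 17 of its genes, 13 of them without overlap (10.1% of all genes). This held for each of the 11 ubiquitous subunits, whose fold changes ran from -0.60 to -0.39 with a median of -0.44 and which all had an unadjusted p under 0.05 (7.2% of all genes). Their median for SNL against sham was 0.25. Cox4i1, the ubiquitous isoform of the regulatory subunit that binds ATP, had 356, 326 and 294 CPM in CBD, 447, 385 and 469 CPM in SNL and 308, 423 and 371 CPM in sham libraries. CBD and SNL did not overlap, and the fold change was -0.42 ± 0.14 (edgeR adjusted p = 0.308). Cox8a, a small membrane subunit, had 221, 158 and 142 CPM in CBD, 247, 246 and 291 CPM in SNL and 207, 302 and 233 CPM in sham libraries. CBD lay below SNL in all libraries, with -0.59 ± 0.19 (edgeR adjusted p = 0.306), while CBD 1 was above Sham 1 and CBD against sham gave -0.51 ± 0.19 (edgeR adjusted p = 0.242).

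Cox6a1, the ubiquitous isoform of a subunit at the dimer interface, had 172, 167 and 150.2 CPM in CBD, 197, 205 and 271 CPM in SNL and 162, 268 and 179 CPM in sham libraries. Its CBD values were below its SNL values, Sham 1 was inside the CBD range, and CBD against sham gave -0.32 ± 0.19 (edgeR adjusted p = 0.424). Cox7b had 124, 107 and 94.8 CPM in CBD, 139, 141 and 153 CPM in SNL and 82.2, 123 and 118 CPM in sham libraries. All SNL values were above all others, and SNL against sham gave 0.42 ± 0.16 (edgeR adjusted p = 0.291). Ndufa4 had 172, 139 and 137 CPM in CBD, 198, 183 and 204 CPM in SNL and 127, 182 and 184 CPM in sham libraries. Here too CBD was below SNL in every library, with -0.39 ± 0.15 (edgeR adjusted p = 0.331). Cox7a2l, described as a factor of supercomplexes of complexes III and IV, had 117, 109 and 105 CPM in CBD, 149, 117 and 133 CPM in SNL and 99.4, 127 and 124 CPM in sham libraries. CBD 1 and SNL 2 were level, and the fold change was -0.27 ± 0.13 (edgeR adjusted p = 0.381).

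The tissue and hypoxia isoforms of complex IV were far less abundant than the ubiquitous ones. Per kilobase of transcript, Cox4i2, Ndufa4l2, Cox7a1, Cox6b2 and Cox6a2 averaged 1.54, 2.52, 2.77, 3.23 and 8.59 CPM over the 9 libraries, whereas Cox4i1 averaged 491 CPM per kilobase. Their median fold change was 0.58 for SNL against sham, -0.44 for CBD against SNL and 0.04 for CBD against sham, where that of the ubiquitous subunits was -0.21. Cox6a2, the heart and skeletal muscle isoform, also known from fast-spiking interneurons of mice, had 4.87, 3.66 and 4.46 CPM in CBD, 6.77, 13.3 and 7.38 CPM in SNL and 3.88, 3.99 and 4.23 CPM in sham libraries. Its SNL libraries were above all others, SNL 2 the most. SNL against sham gave 1.18 ± 0.26, or 2.27-fold higher, with an edgeR adjusted p of 0.21 and a DESeq2 adjusted p of 0.00921. CBD against SNL gave -1.08 ± 0.26, with an edgeR adjusted p of 0.306 and a DESeq2 adjusted p of 0.0314. Without SNL 2 these fold changes were 0.81 and -0.71.

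Ndufa4l2, induced by hypoxia-inducible factor, had 2.27, 2.27 and 1.62 CPM in CBD, 2.39, 3.47 and 3.13 CPM in SNL and 1.99, 1.97 and 2.04 CPM in sham libraries. SNL was above CBD and sham in every library, with 0.58 ± 0.24 against sham and -0.54 ± 0.24 for CBD against SNL (edgeR adjusted p = 0.324 and 0.359). Cox4i2, the isoform known from lung and low oxygen, had 0.812, 0.877 and 1.56 CPM in CBD, 0.992, 1.31 and 2.07 CPM in SNL and 0.816, 0.404 and 1.33 CPM in sham libraries. Its groups overlapped, and the SE of 0.47 on a fold change of 0.78 for SNL against sham shows how little such counts resolve (edgeR adjusted p = 0.484). Cox6b2, the testis isoform, had 1.84, 2.43 and 0.869 CPM in CBD, 2.22, 1.74 and 2.76 CPM in SNL and 1.89, 1.42 and 1.84 CPM in sham libraries. Cox7a1, a muscle isoform, had 1.46, 1.08 and 0.405 CPM in CBD, 0.875, 1.37 and 1.65 CPM in SNL and 0.969, 1.06 and 0.918 CPM in sham libraries. Both overlapped in all groups, with -0.38 ± 0.36 and -0.39 ± 0.43 for CBD against SNL (edgeR adjusted p = 0.672 and 0.716).

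Complex V, the ATP synthase, had 16 of its 17 genes higher in SNL than in sham mice and 16 lower in CBD than in SNL mice, 12 of these without overlap (10.1% of all genes). Its F1 head, which holds the catalytic sites, had a median of -0.20 over 5 genes for CBD against SNL, the peripheral stalk -0.32 over 4, the c ring -0.44 over 3 and the membrane accessory subunits -0.52 over 5. Atp5b, the catalytic beta subunit and at 553 CPM per kilobase the most abundant of the 84, had 1007, 1037 and 983 CPM in CBD, 1128, 1171 and 1168 CPM in SNL and 954, 993 and 1093 CPM in sham libraries. Its SNL libraries were above all others by a small margin, with -0.20 ± 0.10 for CBD against SNL and 0.19 ± 0.10 for SNL against sham (edgeR adjusted p = 0.401 and 0.419). Atp5a1, the alpha subunit, had 796, 802 and 740.2 CPM in CBD, 808, 799 and 840.1 CPM in SNL and 759.8, 784 and 852 CPM in sham libraries. These overlapped in all groups, with -0.07 ± 0.10 for CBD against SNL (edgeR adjusted p = 0.796).

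Atp5d, the delta subunit of the rotating central stalk, had the smallest p of complex V under cannabidiol. It had 125, 83.4 and 76.0 CPM in CBD, 148, 157 and 158 CPM in SNL and 147, 162 and 134 CPM in sham libraries. All CBD libraries were below all others, CBD 2 and CBD 3 the most, while SNL and sham overlapped. CBD against SNL gave -0.70 ± 0.17, 1.62-fold lower, with an edgeR adjusted p of 0.306 and a DESeq2 adjusted p of 0.0261. CBD against sham gave -0.64 ± 0.17, 1.55-fold lower, with an edgeR adjusted p of 0.213 and a DESeq2 adjusted p of 0.0339. Without CBD 1 the fold change against sham was -0.89 and its edgeR adjusted p 0.0328. Without the 3 libraries with hypothalamic transcripts it was -0.88. With the GC content and length offsets described below, the fold change against sham was -0.36 (edgeR adjusted p = 0.714).

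The c ring, which turns as protons pass, is built from 1 mature protein that 3 genes encode. Atp5g3 had 179, 164 and 152 CPM in CBD, 245, 192 and 236 CPM in SNL and 133, 199 and 179 CPM in sham libraries. CBD was below SNL in every library, and SNL against sham gave 0.40 ± 0.16 with an overlap (edgeR adjusted p = 0.307). Atp5g2 had 4.93, 4.95 and 6.08 CPM in CBD, 5.54, 5.42 and 4.62 CPM in SNL and 5.76, 7.13 and 4.84 CPM in sham libraries. It alone of the 84 was lower in SNL than in sham mice, by a fold change of -0.19 ± 0.20 with overlapping groups (edgeR adjusted p = 0.703), and CBD against SNL gave 0.03 ± 0.20 (edgeR adjusted p = 0.954). Atp5g1 stood at -0.45 for CBD against SNL.

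In the peripheral stalk, which holds the F1 head still, Atp5j had 97.7, 102 and 97.6 CPM in CBD, 138, 116 and 132 CPM in SNL and 75.9, 113 and 109 CPM in sham libraries. SNL was above both other groups, and SNL against sham gave 0.37 ± 0.15 (edgeR adjusted p = 0.305). Atp5pb, the b subunit, had 194, 205 and 199 CPM in CBD, 231, 194 and 219.6 CPM in SNL and 147, 191 and 205 CPM in sham libraries. Its groups overlapped, and CBD against sham gave 0.14 ± 0.13 (edgeR adjusted p = 0.623). Of the membrane accessory subunits, which pair the synthase into dimers and shape the cristae, Atp5k had 37.2, 34.6 and 26.1 CPM in CBD, 47.4, 40.3 and 62.7 CPM in SNL and 34.9, 50.4 and 44.6 CPM in sham libraries. CBD lay below SNL in every library, with -0.62 ± 0.20 against SNL and -0.41 ± 0.20 against sham (edgeR adjusted p = 0.306 and 0.334). The other 4 accessory subunits, Atp5j2, Atp5l, Atp5md and Atp5mpl, stood at -0.63, -0.46, -0.38 and -0.52 for CBD against SNL.

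The members are short, with a median transcript length of 849.5 bases against 2886 bases over 17642 tested genes with a length, and fold changes of all genes moved with length and GC content. Over all these genes Spearman's rho between length and the fold change was 0.36 for CBD against SNL and -0.20 for SNL against sham. Across the 84 members it was 0.53 and -0.25, as a description across genes that share the same libraries. For GC content rho was -0.45 and -0.15 over all genes and -0.39 and -0.11 over the members. For CBD against sham rho over all genes was 0.15 for length and -0.57 for GC content. Over the members it was 0.38 and -0.41. The median fold change for CBD against SNL was -0.46 over the 42 members shorter than the median member and -0.37 over the 42 longer ones. Single members departed from this on both sides. The longest by annotation, Atp5g1 at 4715 bases, Ndufb2 at 4371 and Ndufab1 at 3479, stood at -0.45, -0.39 and -0.40, while Sdha at 2900 bases stood at 0.00. Each length is that of a single annotated transcript per gene, which may not be the main one made in hippocampus. With the offsets described below, Atp5g1, Ndufb2 and Ndufab1 stood at -0.58, -0.56 and -0.52. Of the shorter ones, Uqcr10 at 434 bases stood at -0.79, and Uqcrb at 535 and Atp5g2 at 731 at -0.08 and 0.03.

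With offsets for GC content and length in the fit, the median of the members was 0.16 for SNL against sham, with 79 of 84 higher, -0.21 for CBD against SNL, with 78 lower, and -0.02 for CBD against sham, with 48 lower. The number at an unadjusted p under 0.05 was 8 in SNL against sham, all higher (6.4% of all genes in that fit). It was 28 in CBD against SNL and 5 in CBD against sham, all lower (3.95% and 3.68% of all genes). By complex, CBD against SNL then had medians of -0.21, -0.01, -0.26, -0.24 and -0.22 for complexes I to V in that order. Atp5d stood at -0.42, Ndufa2 at -0.51, Uqcr10 at -0.46, Cox6a2 at -0.84 and Ndufs1 at 0.07. The size of the difference between CBD and SNL mice thus depended on them, at a median of -0.44 without and -0.21 with these offsets.

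**Figure D4:**
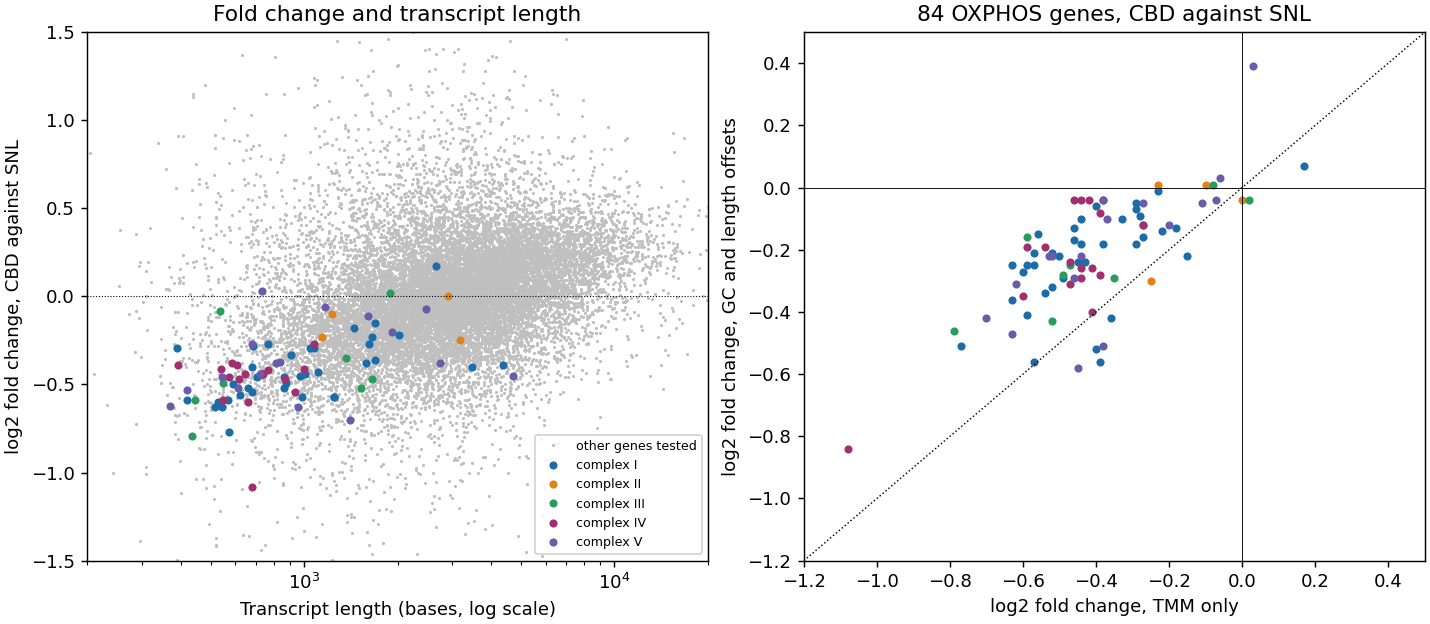
Left, log2 fold change for CBD against SNL against transcript length (log axis) for the 84 OXPHOS genes, coloured by complex, and the other tested genes in grey. Right, the fold change of the 84 genes with offsets for GC content and length (vertical axis) against that with TMM scaling alone (horizontal axis), with the line of equal values dotted; most points lie above the line and below 0, and the medians are -0.21 and -0.44.

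Other genes of the mitochondrion were set beside the subunits, in the fit without the offsets for GC content and length. The part of GC content and length in their differences was not tested. The 13 protein-coding genes of the mitochondrial genome, subunits of the same complexes, had a median of opposite sign to that of the nuclear ones for CBD against SNL. All 13 were higher in SNL than in sham mice, with a median of 0.42, and 11 of 13 were higher in CBD than in SNL mice, with a median of 0.17. In CBD against sham mice all 13 were higher, with a median of 0.57, and 8 had an unadjusted p under 0.05, against 7.41% of all genes in that direction, although the groups overlapped for each of them. Their summed level was 37748, 57264 and 60152 CPM in CBD, 53889.7, 41549.9 and 48324 CPM in SNL and 28229, 41613 and 37683 CPM in sham libraries. Divided by the summed level of the 84 nuclear members, this gave 3.98, 6.56 and 7.41 in CBD, 4.90, 4.12 and 4.15 in SNL and 3.50, 4.04 and 3.80 in sham libraries. The ratio was high in CBD 2 and CBD 3, and CBD 1 lay among the SNL and sham values.

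Of the mitochondrial genes, mt-Atp6, a subunit of the proton channel of complex V, had 314, 1038 and 825 CPM in CBD, 519.7, 474 and 498 CPM in SNL and 262, 333 and 379 CPM in sham libraries. CBD 2 and CBD 3 were above all other libraries and CBD 1 was not, and CBD against sham gave 1.16 ± 0.34, with an edgeR adjusted p of 0.213 and a DESeq2 adjusted p of 0.0223. The complex I subunits mt-Nd5 and mt-Nd6 gave 0.85 ± 0.24 and 0.90 ± 0.26 for the same comparison (edgeR adjusted p = 0.213 for both, DESeq2 adjusted p = 0.0258 and 0.0253). Levels of mt-Co1, the catalytic subunit of complex IV, averaged 21871 ± 4250 CPM in CBD, 21864 ± 2710 CPM in SNL and 16396 ± 3140 CPM in sham mice (SD, n = 3 each), with 0.42 ± 0.19 for SNL against sham (edgeR adjusted p = 0.368).

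The mitochondrial ribosomal proteins, which are also nuclear-encoded and short, lay between the OXPHOS subunits and all genes. Of 78 genes, 71 were higher in SNL than in sham mice, with a median of 0.14, and 71 were lower in CBD than in SNL mice, with a median of -0.23, against medians of 0.26 and -0.44 for the subunits. In CBD against SNL 18 of the 78 had an unadjusted p under 0.05, all lower, as had 7.2% of all genes. Mrpl12, which also binds the mitochondrial RNA polymerase, averaged 31.4 ± 4.33 CPM in CBD, 44.6 ± 4.92 CPM in SNL and 39.2 ± 2.23 CPM in sham mice (SD, n = 3 each). CBD against SNL gave -0.51 ± 0.13 for it, without overlap (edgeR adjusted p = 0.306, DESeq2 adjusted p = 0.0452). Mrps26 was lower in CBD than in sham mice without overlap, at -0.48 ± 0.12 (edgeR adjusted p = 0.213, DESeq2 adjusted p = 0.0382).

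Assembly factors, which build the complexes without being part of them, had medians nearer 0 than the subunits of their complex for CBD against SNL. The 19 tested for complex I had medians of 0.11 for SNL against sham and -0.09 for CBD against SNL, and the 25 for complex IV had 0.15 and -0.16. Those of complexes II, III and V, 4, 6 and 5 genes, had medians of 0.18, 0.10 and 0.25 for SNL against sham, where the subunits had 0.13, 0.17 and 0.25, and of -0.08, -0.11 and -0.16 for CBD against SNL. No test compared these lists with the subunits. Ndufaf3, an early complex I assembly factor, averaged 17.1 ± 2.81 CPM in CBD and 24.7 ± 2.95 CPM in SNL mice (SD, n = 3 each), a fold change of -0.53 ± 0.16 without overlap (edgeR adjusted p = 0.306). Cox14, an assembly factor of complex IV, averaged 34.0 ± 2.42 CPM in CBD and 50.7 ± 8.83 CPM in SNL mice, at -0.58 ± 0.16 without overlap (edgeR adjusted p = 0.306). Cmc2, another, averaged 8.29 ± 0.251 CPM in SNL and 5.15 ± 0.588 CPM in sham mice, at 0.69 ± 0.15 without overlap (edgeR adjusted p = 0.21, DESeq2 adjusted p = 0.0208).

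Partners of the chain had medians of the same sign as the subunits for SNL against sham and for CBD against SNL, and nearer 0. Of 10 electron carriers and dehydrogenases that feed ubiquinone or cytochrome c, 7 were higher in SNL than in sham mice, with a median of 0.13, and 8 were lower in CBD than in SNL mice, with a median of -0.16. They include Cyc1, the cytochrome c1 subunit of complex III that the name rule misses, at -0.34 ± 0.11 without overlap (edgeR adjusted p = 0.309), and Gpd2, the mitochondrial glycerol phosphate dehydrogenase, at 0.38 ± 0.14 (edgeR adjusted p = 0.321). Dhodh, of pyrimidine synthesis, averaged 16.0 ± 1.3 CPM in CBD and 21.8 ± 0.374 CPM in sham mice (SD, n = 3 each), at -0.45 ± 0.10 without overlap (edgeR adjusted p = 0.213, DESeq2 adjusted p = 0.0348). The 13 genes of coenzyme Q synthesis had medians of 0.02 for SNL against sham and -0.10 for CBD against SNL. Coq8a, which supports that synthesis, averaged 33.7 ± 5.1 CPM in SNL and 49.0 ± 4.05 CPM in sham mice, at -0.54 ± 0.14 without overlap (edgeR adjusted p = 0.227). All 11 tested carriers of nucleotides, phosphate and protons were higher in SNL than in sham mice, with a median of 0.19, and 5 of them did not overlap between the groups (45.5%, against 7.94% of all genes). In CBD against SNL 8 of the 11 were lower, with a median of -0.15. Slc25a4, the adenine nucleotide translocator of excitable tissue, averaged 468 ± 42.3 CPM in CBD and 586 ± 18.7 CPM in SNL mice, at -0.32 ± 0.11 without overlap (edgeR adjusted p = 0.309).

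The 20 regulators of mitochondrial gene expression had medians of -0.04 for SNL against sham, 0.07 for CBD against SNL and -0.01 for CBD against sham. Esrra, a nuclear receptor that drives OXPHOS genes, averaged 47.8 ± 6.3 CPM in CBD and 72.4 ± 14.6 CPM in SNL mice (SD, n = 3 each). Its fold change was -0.60 ± 0.15 without overlap (edgeR adjusted p = 0.306, DESeq2 adjusted p = 0.0385). Gabpa, whose letters are marked in the promoters above, averaged 30.1 ± 3.44 CPM in CBD and 21.8 ± 1.45 CPM in sham mice, at 0.47 ± 0.14 without overlap (edgeR adjusted p = 0.213). Ppargc1a, the coactivator of mitochondrial biogenesis, averaged 43.7 ± 0.553 CPM in CBD and 33.1 ± 7 CPM in sham mice, at 0.40 ± 0.15 without overlap (edgeR adjusted p = 0.244). Ppargc1b, its relative, was at -0.60 ± 0.23 for SNL against sham with overlapping groups (edgeR adjusted p = 0.299).

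**Figure D5:**
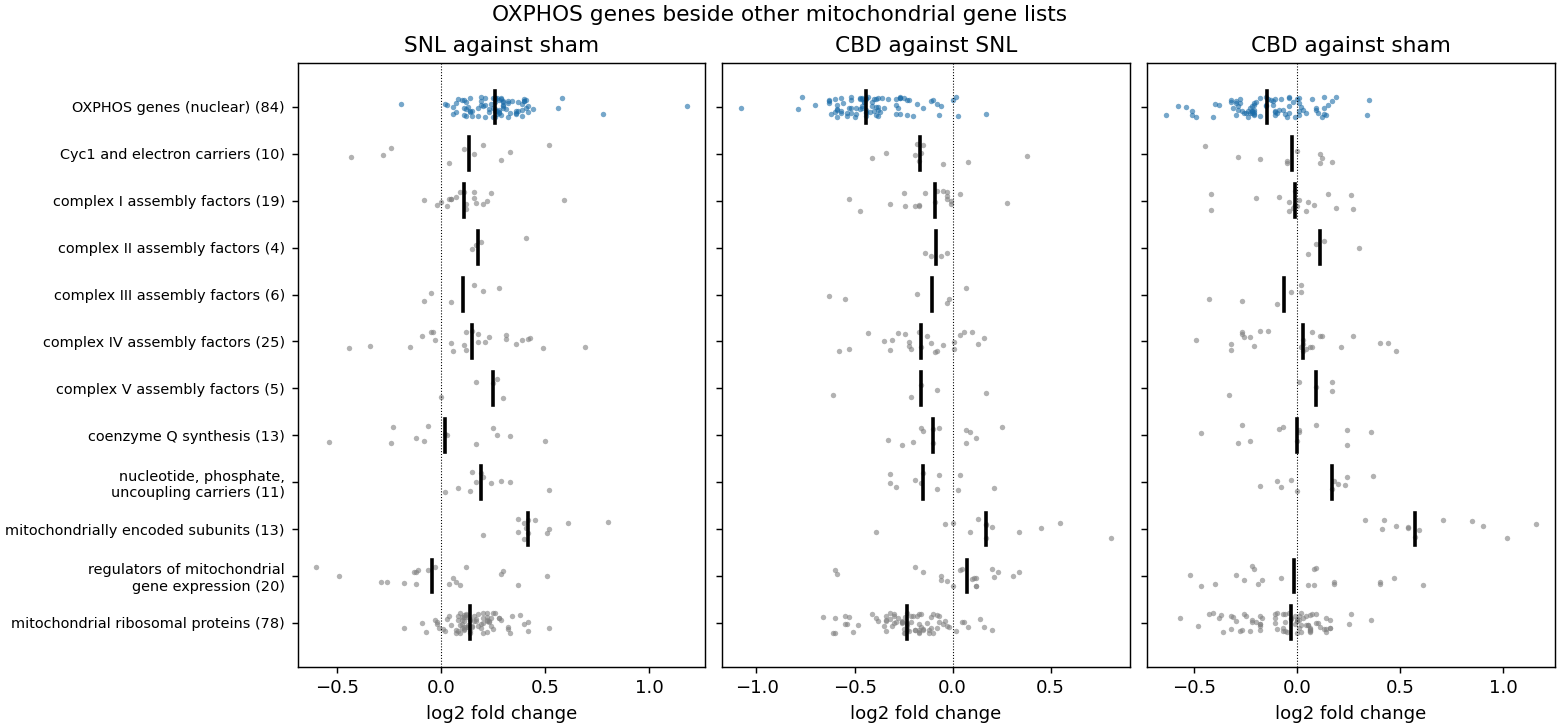
Fitted log2 fold change of each gene (points) in the 84 OXPHOS genes (blue) and in 11 other mitochondrial gene lists (grey), with the number of genes tested in brackets and the median as a black bar, for the 3 comparisons. For CBD against SNL the OXPHOS genes have the lowest median of these lists, -0.44, and the mitochondrial ribosomal proteins follow at -0.23. The mitochondrially encoded subunits and the regulators lie above 0 at 0.17 and 0.07. The fit used no offsets for GC content or length.

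Markers of other cells and of neighbouring brain regions differed in the same comparisons, and their part in the OXPHOS differences was not tested. All 14 thalamus and habenula markers were higher in SNL than in sham mice, with a median of 1.17, and lower in CBD than in SNL mice, with a median of -0.48. They summed to 718 to 1026 CPM in CBD, 806 to 2098 CPM in SNL and 508 to 670.1 CPM in sham libraries. All 12 oligodendrocyte and myelin markers were higher in SNL than in sham mice, with a median of 0.39, and lower in CBD than in SNL mice, with a median of -0.45. They summed to 8659 to 10130.4 CPM in CBD, 10926 to 15544 CPM in SNL and 9076 to 12294 CPM in sham libraries. All 12 endothelium and pericyte markers were higher in SNL than in sham mice, with a median of 0.55, and 11 of 12 were lower in CBD than in SNL mice, with a median of -0.20, summing to 488 to 555 CPM in CBD, 539 to 699 CPM in SNL and 393 to 460.5 CPM in sham libraries. All 10 dentate granule cell markers were lower in SNL than in sham mice, with a median of -0.80, and 8 of 10 were higher in CBD than in SNL mice, with a median of 0.27. They summed to 251 to 517 CPM in CBD, 251 to 383 CPM in SNL and 412 to 673 CPM in sham libraries. CBD mice had lower values than SNL mice for 9 of the 10 microglia markers, with a median of -0.29, and the median for SNL against sham was -0.02. They summed to 342 to 412 CPM in CBD, 378 to 472 CPM in SNL and 406 to 499 CPM in sham libraries. The 10 choroid plexus markers varied widely within groups, at 1167 to 1926 CPM in CBD, 270.4 to 2260.2 CPM in SNL and 145 to 1343 CPM in sham libraries, with medians of 0.25 for SNL against sham and 0.40 for CBD against SNL. The 10 astrocyte markers had medians of 0.02 and -0.02, and the 13 neuron markers of 0.04 and -0.02, for the same comparisons. Single astrocyte markers ran from -0.41 to 0.38 for SNL against sham and from -0.53 to 0.42 for CBD against SNL. Single neuron markers ran from -0.79 to 0.40 and from -0.53 to 0.59.

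In CBD against sham mice all 14 thalamus and habenula markers were higher, with a median of 0.57, as were all 10 choroid plexus markers at 0.61 and 10 of 12 endothelium and pericyte markers at 0.23. Lower in that comparison were 9 of 10 microglia markers, with a median of -0.37 and 5 without overlap (50%, against 11.1% of all genes), and 8 of 10 dentate granule cell markers, with a median of -0.54. The medians of oligodendrocyte, neuron and astrocyte markers were -0.08, -0.15 and -0.01. No marker of these lists was at 0 in all 9 libraries.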

How the data were processed

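The authors' table gives estimated counts from RSEM for every gene and library (expected counts, not normalized). The submitters' processing notes name RSEM and build GRCm39; aligner, versions, annotation and read filters are not given there. Per the labels' protocols, TRIzol RNA (1.3 ug) was made into libraries with a SMARTER mRNA-seq kit. Expected counts were rounded to whole numbers, genes filtered by filterByExpr, scaled by TMM and tested with edgeR's quasi-likelihood F test (edgeR 4.0.16 in R 4.3.3), in a model of group over all 9 libraries that leaves 6 degrees of freedom. The Benjamini-Hochberg adjustment ran over 17967 genes, with a threshold of 0.05. The fit was tested on simulated data with known changes, in which no trend with GC content or length was built. Alternatives were DESeq2 (1.42.0, Wald test on all genes with its own filter), its size factors in edgeR, no filter, only the libraries compared, a replicate block, GC and length offsets, each library left out, and 3 libraries left out together. Members and gene lists were chosen with earlier results of these data known. Named members are those with the 2 smallest p per complex and comparison, the 2 highest CPM per complex, all Sdh genes, the isoforms, and up to 6 a comparison with the sign opposite to the median; up to 3 genes with the smallest p came from other lists. Transcript length and GC content are those of a single transcript per gene in an older annotation (GENCODE M21). Of the tested genes 98.2% had them. Exact tests were not used: 3 against 3 libraries cannot give a two-sided p below 0.1. Same-numbered libraries correlated in their deviations between -0.266 and 0.191, so replicate numbers were not taken as pairs. No libraries agreed within counting noise, the nearest being CBD 2 and CBD 3 (6.15 chi-square units per gene). Atp5o has another entry at 0, which was not used. Values of 1 member are not reported here by name.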

Additional observations from a re-analysis of the deposited data

How the results depend on the processing

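The medians of the members and of each complex changed sign under an alternative only for CBD against sham. With GC content and length offsets complex II stood at 0.04 and complex V at 0.02 there, and leaving out 1 library moved complex II between -0.09 and 0.07. The same offsets moved CBD against SNL medians to -0.21 for all members, -0.21 for complex I, -0.01 for II, -0.26 for III and -0.24 for IV, and the members at an unadjusted p under 0.05 to 8 for SNL against sham and 28 for CBD against SNL. They changed the sign of 4, 6 and 21 of the 84 members in SNL against sham, CBD against SNL and CBD against sham. Among these were Cox8a (-0.00, SNL against sham), Sdha (-0.04), Sdhb (0.01), Sdhd (0.01) and Uqcrc2 (-0.04) for CBD against SNL, and Ndufv2 (-0.03), Sdhb (0.05), Uqcrc2 (-0.01), Cox6a1 (0.02), Cox4i1 (0.10) and Ndufv1 (0.10) for CBD against sham. The cause was not tested. Without the 3 libraries with hypothalamic transcripts CBD against SNL medians were -0.67 for all members, -0.73 for complex I, -0.74 for IV and -0.58 for V. Sdha was then at -0.12 and Uqcrc2 at -0.02 for CBD against SNL, and complex III was at 0.34 for SNL against sham. Without a filter Sdha was at -0.00 for CBD against SNL. Over all genes, calls for SNL against sham, CBD against SNL and CBD against sham numbered 253, 1 and 56 without a filter, 363, 150 and 369 by DESeq2, 1, 2 and 20 without those 3 libraries, and 1 in the fit of only the 6 libraries compared for CBD against sham. Members called were 1 (Cox6a2, SNL against sham) without a filter, and 1, 4 and 1 by DESeq2 in the 3 comparisons. Replicate numbers did not pair the libraries. A fit with the replicate block left 8 members at an unadjusted p under 0.05 for SNL against sham, all higher, as were 4.25% of all genes. It left 4 for CBD against sham, all lower, as were 7.09% of all genes. Leaving out each library gave 0 to 8, 0 to 2 and 0 to 17 genes called in the 3 comparisons. For CBD against sham it gave 0 to 1 members called (Atp5d without CBD 1). It left 1 to 34, 16 to 62 and 1 to 28 members at an unadjusted p under 0.05. Of all genes, 3.59% to 9.25% were higher at that level in SNL against sham. In CBD against SNL 2.98% to 10.9% were lower in these fits, and in CBD against sham 5.48% to 10.7%. Complex III ranged from 0.07 to 0.38 for SNL against sham, Atp5a1 from -0.00 to 0.08, Cox8a from -0.03 to 0.25 and Sdhd from -0.01 to 0.22. For CBD against SNL Atp5g2 ranged from -0.07 to 0.08, Sdha from -0.07 to 0.08 and Uqcrc2 from -0.03 to 0.04. Low counts limited the isoforms Cox4i2, Cox6b2 and Cox7a1, whose SE for CBD against SNL ran from 0.36 to 0.47.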
